A study of Mus musculus with 33 samples.

Results

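The genes examined were the BCL-2 family genes Bcl2, Bcl2l1, Bax and Bid, the death receptor genes Fas, Fadd and Casp8, and the p53 axis genes Trp53 and Cdkn1a. These 9 genes were chosen by name, for their place in apoptosis, from the 750 gene probes counted. RNA came from the bone marrow of 33 female C57BL/6 mice aged 6 to 8 weeks and was counted on a NanoString nCounter panel, in which a barcoded probe pair is counted for each transcript without amplification. Venetoclax, an inhibitor of the BCL2 protein, was given by oral gavage once daily for 2 days at a dose of 100, and ruxolitinib, a Janus kinase inhibitor, 2 times daily at a dose of 180 (mg/kg in the study's methods, mg/ml in its design text). Each drug was set against mice gavaged with its own vehicle. The venetoclax vehicle held phosal 50 PG, PEG 400 and ethanol, and the ruxolitinib vehicle held DMSO, PEG 300 and water. Marrow was taken on day 1, 3 or 7, from 3 drug-treated and 2 vehicle-treated mice per drug and day, and from 3 untreated mice. Whole marrow was counted, so a gene at a lower level through fewer cells of a type cannot be told apart from less RNA per cell.

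Apoptosis has an intrinsic and an extrinsic route. In the intrinsic route the anti-apoptotic proteins BCL2 and BCL-XL (the product of Bcl2l1) hold BAX in check at the mitochondrion, and BH3-only proteins such as BID release it. In the extrinsic route a ligand-bound death receptor such as FAS recruits the adaptor FADD and the initiator caspase CASP8, which can cleave BID and so couples both routes. The transcription factor p53, encoded by Trp53, can induce Bax, Fas and the cell cycle inhibitor gene Cdkn1a after DNA damage. In bone marrow, lymphocytes are known to depend on BCL2 and erythroid precursors on BCL-XL. Venetoclax occupies the BH3 groove of BCL2 and acts on the protein, whereas the RNA was measured here.

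The lanes held 18056 to 466096 counts over the 750 gene probes (median 158944), with 2 lanes under 30000, venetoclax day 1 replicate 1 and ruxolitinib day 3 replicate 1. The neutrophil gene S100a8 took 32.5% to 68.8% of the gene counts of a lane. Counts were scaled on 11 housekeeping probes, and a count was called above background where it was over the mean of the 8 negative control probes in its lane by more than 2 SD. Bcl2l1, Casp8 and Trp53 were above background in all 33 lanes, Bid in 32, Bax and Fas in 31, Cdkn1a in 28, Bcl2 in 27 and Fadd in 20. Of the gene probes, 40.1% and 33.6% were above background in the 2 lanes under 30000 counts. In the lane of untreated replicate 1 (run 1), with 47977 counts, it was 38.5%. All 9 genes were among the 655 tested. Levels below are normalised counts, which compare mice but not genes, since each probe pair has its own efficiency.

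The 3 instrument runs each held the mice of 1 day and 1 untreated mouse, so day and run cannot be told apart. Drug and vehicle mice of a day shared a run.

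**Figure D1:**
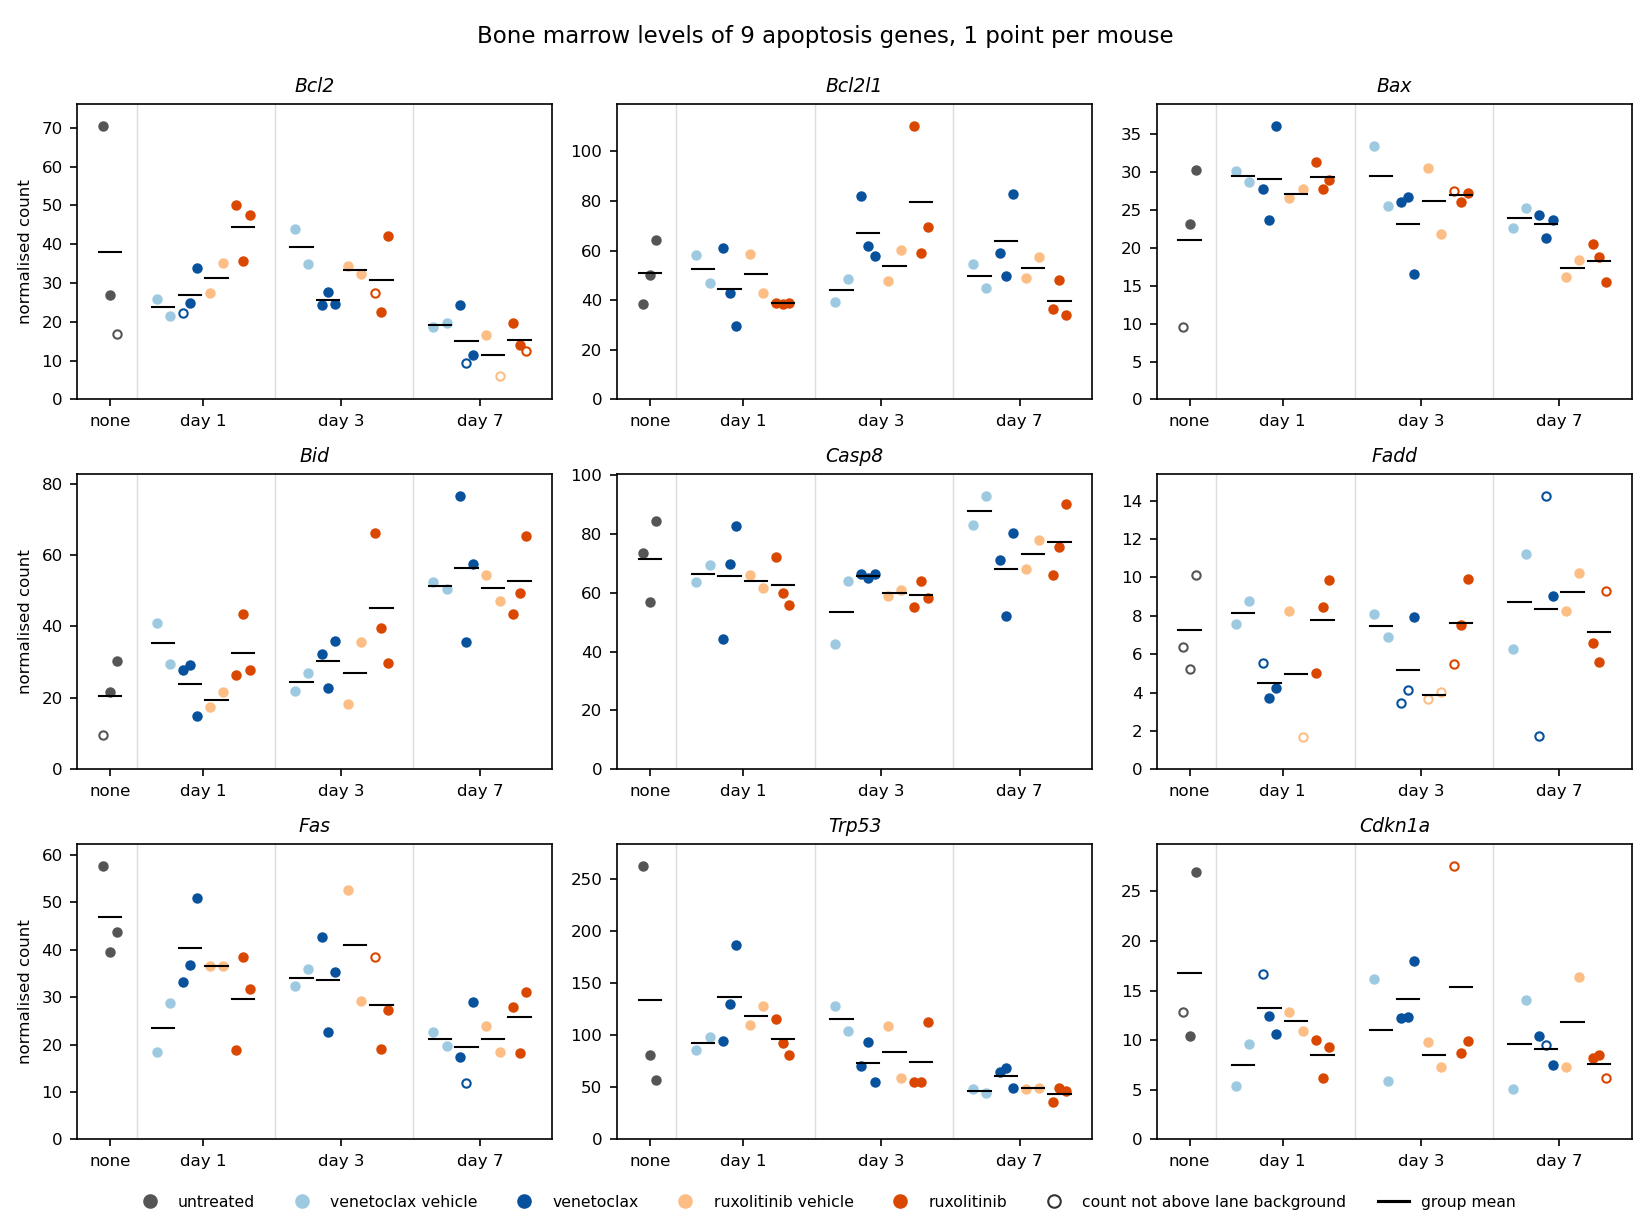
Normalised counts (y axis, linear from 0) of the 9 genes in each of the 33 mice (points), by day along the x axis and coloured by group, with group means as bars and open symbols for counts not above background. Within a day the drug-treated and vehicle-treated mice mostly overlap, whereas Bcl2 and Trp53 sit lower and Bid higher on day 7 than on day 1.

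The first question was whether either drug changed the RNA of these genes against its vehicle. None of the 9 was called in venetoclax mice on day 1, day 3 or day 7 or in the mean of the 3 days by edgeR's quasi-likelihood test (adjusted p under 0.05). Of all 655 genes tested, 0.153% were called on day 1, 0.0% on day 3, 0.153% on day 7 and 2.9% in the mean of days. None was called in ruxolitinib mice either, against 2.75% of all genes on day 1, 0.153% on day 3, 0.153% on day 7 and 1.22% in the mean of days. At an unadjusted p under 0.05, 1 of the 9 passed on day 1 and 1 on day 3 for venetoclax (10.4% and 10.7% of all genes) and none on day 7 or in the mean of days (4.73% and 9.16%). For ruxolitinib 2 of the 9 passed on day 1, 1 on day 3, none on day 7 and 1 in the mean of days (13.6%, 4.73%, 3.51% and 8.85% of all genes). Neither limma nor DESeq2 called any of the 9 in these comparisons. Single mice weighed heavily in these small groups. Of the 72 log2 fold changes of the 9 genes over the 8 comparisons, 25 turned sign and 66 turned sign or moved by over 1.5 times when 1 mouse was left out, values near 0 included. The median log2 fold change of the 9 genes in the mean of days was 0.01 for venetoclax and 0.02 for ruxolitinib, against 0.04 for all genes tested with either drug.

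**Figure D2:**
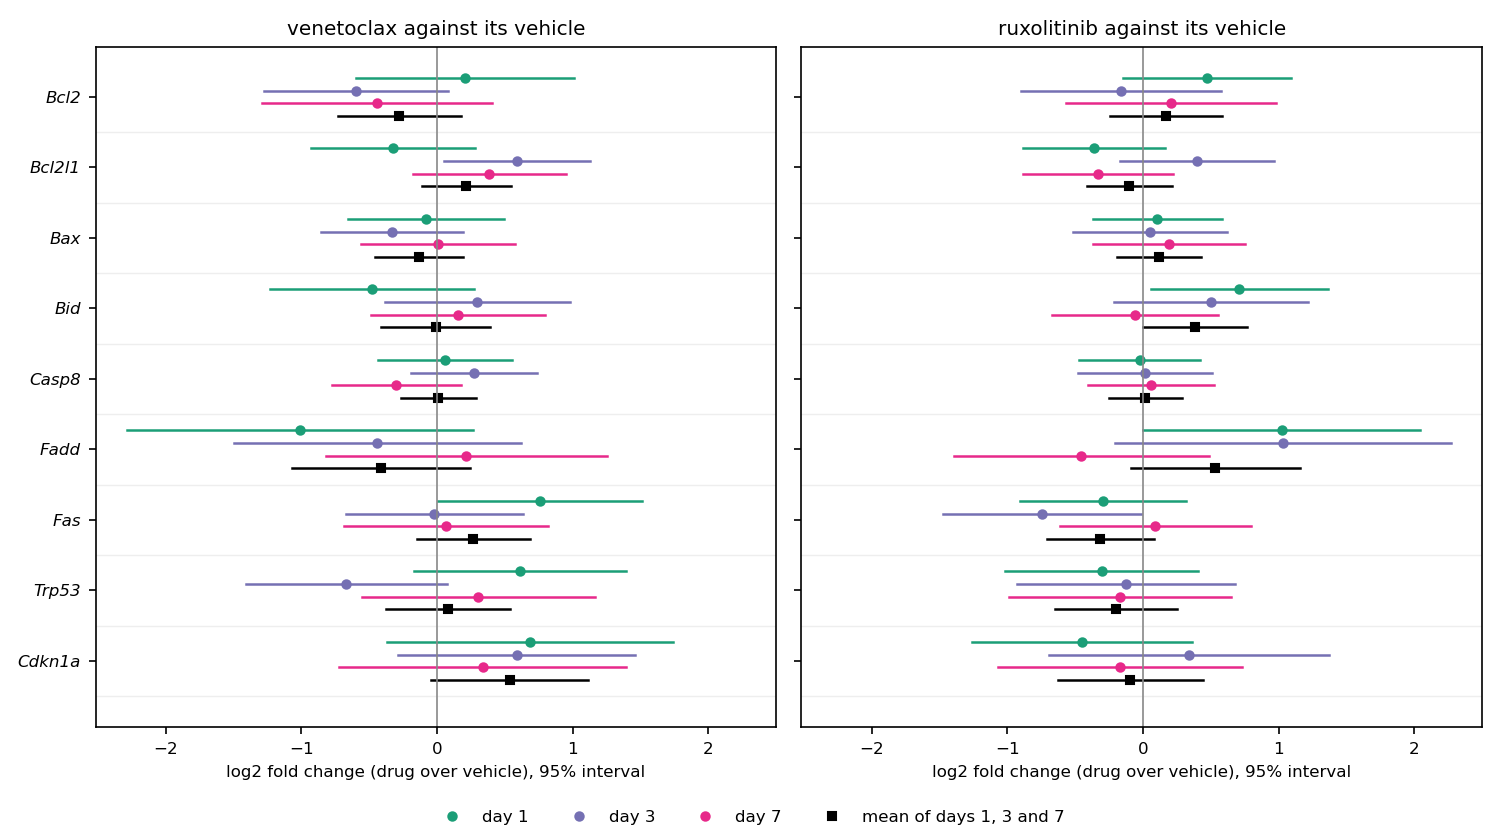
Log2 fold change of each of the 9 genes in drug-treated against vehicle-treated mice (x axis), by day and for the mean of the 3 days, with 95% intervals from the fit as bars. Most intervals span 0, and no gene passed the adjusted threshold.

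Bcl2, the target of venetoclax, was not called after either drug. On day 1 its level was 22.2 (not above background), 24.9 and 33.9 in venetoclax mice and 25.9 and 21.5 in vehicle mice, and the groups overlapped (log2 fold change 0.21, 95% interval -0.60 to 1.01). On day 3 it was 24.4, 27.8 and 24.5 in venetoclax mice and 43.8 and 34.9 in vehicle mice. All 3 treated mice lay below both controls, but the difference was not called (log2 fold change -0.60, interval -1.28 to 0.08, adjusted p = 0.522 by edgeR). By day 7 the levels were 24.3, 9.48 (not above background) and 11.6 against 18.8 and 19.7, which overlapped. Averaged over days, the interval for venetoclax allowed a Bcl2 level between 0.604 and 1.13 times that of the vehicle mice. In ruxolitinib mice Bcl2 was 50.2, 35.6 and 47.6 on day 1 against 27.5 and 35.3 in vehicle mice, higher in 3 of 3 with no overlap but not called (log2 fold change 0.47, interval -0.15 to 1.09). It overlapped the vehicle on day 3 (27.5, 22.6 and 42.2 against 34.3 and 32.4, where the 27.5 was not above background) and on day 7 (19.7, 14.1 and 12.4 against 16.5 and 6.15, where the 12.4 and the 6.15 were not above background). The sign of both later differences turned when 1 mouse was left out, to 0.20 on day 3 without ruxolitinib replicate 2 and to -0.03 on day 7 without ruxolitinib replicate 1. The interval for the mean of days was 0.846 to 1.5 times the vehicle level.

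Bcl2l1, which encodes the other anti-apoptotic protein measured, had its smallest p with venetoclax on day 3. It was 81.8, 61.8 and 57.6 in venetoclax mice and 39.2 and 48.6 in vehicle mice, so all 3 treated mice lay above both controls (log2 fold change 0.59, interval 0.05 to 1.13). Its unadjusted p was 0.034 and its adjusted p 0.41 by edgeR. On day 1 the levels were 61.0, 43 and 29.7 against 58.3 and 47.0, and on day 7 they were 59.1, 49.8 and 82.8 against 54.7 and 44.9, with overlap on both days. With ruxolitinib, Bcl2l1 lay below both controls on day 1 (38.9, 38.5 and 38.8 against 58.6 and 42.8) and on day 7 (36.5, 48.2 and 34.2 against 48.8 and 57.4). On day 3 it was 110, 59.0 and 69.4 against 47.8 and 60.0, with overlap, and the highest value came from a lane under 30000 counts. None of these differences was called.

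Bax, the pore-forming effector, had the narrowest range of group means among the intrinsic genes. In venetoclax mice it was 27.7, 23.7 and 36.1 on day 1 against 30.2 and 28.7, 26.1, 26.8 and 16.6 on day 3 against 33.4 and 25.5, and 24.3, 21.3 and 23.7 on day 7 against 22.7 and 25.3. The groups overlapped on each day, and the mean of days allowed 0.728 to 1.14 times the vehicle level. In ruxolitinib mice the fitted differences were 0.11, 0.05 and 0.19 on the log2 scale on days 1, 3 and 7, and none was called.

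Bid, which encodes the BH3-only protein that CASP8 cleaves, differed in opposite directions with the drugs on day 1, without a call. It was 27.7, 29.3 and 14.8 in venetoclax mice against 41 and 29.5 in vehicle mice, lower in 3 of 3 (log2 fold change -0.48, from -0.89 without venetoclax replicate 2 to -0.24 without vehicle replicate 1). In ruxolitinib mice it was 26.4, 43.6 and 27.9 against 17.4 and 21.6, higher in 3 of 3 with no overlap (log2 fold change 0.71, interval 0.06 to 1.36, adjusted p = 0.33 by edgeR). On day 3 ruxolitinib mice had 66.0, 39.6 and 29.8 against 18.4 and 35.7, and on day 7 they had 43.5, 49.3 and 65.2 against 54.3 and 47.1, with overlap on both days. Averaged over days, Bid had a log2 fold change of 0.38 with ruxolitinib (interval 0.00 to 0.77, unadjusted p = 0.049, adjusted p = 0.551 by edgeR) and -0.01 with venetoclax.

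Ratios of Bcl2 to the effector gene Bax and to the other anti-apoptotic gene Bcl2l1 were taken within a lane, as the log2 ratio of raw counts, free of the scaling between lanes. The Bcl2 to Bax ratio was higher in venetoclax than in vehicle mice by 0.21 on day 1, and it was lower by 0.25 on day 3 and by 0.42 on day 7 (differences of group means on the log2 scale, not tested). Leaving out 1 mouse gave 0.11 (vehicle replicate 2) to 0.31 (venetoclax replicate 1) on day 1, -0.44 (venetoclax replicate 3) to -0.11 (venetoclax replicate 1) on day 3, and -0.79 (venetoclax replicate 1) to -0.20 (venetoclax replicate 2) on day 7. On day 7 a venetoclax mouse with a Bcl2 count not above background had the lowest of the ratios 0.0, -1.17 and -1.04, against -0.27 and -0.36. With ruxolitinib the differences were 0.39 on day 1 and -0.23 on day 3. They ran from 0.24 (without vehicle replicate 1) to 0.54 (without vehicle replicate 2) and from -0.47 (without ruxolitinib replicate 3) to -0.02 (without vehicle replicate 2). On day 7 the ruxolitinib mice had Bcl2 to Bax ratios of -0.059, -0.415 and -0.322, which lay between the 0.027 and -1.585 of the vehicle mice, and the lower of these came from a Bcl2 count not above background. The Bcl2 to Bcl2l1 ratio differed by 0.47, -1.22 and -0.80 with venetoclax and by 0.87 and -0.69 on days 1 and 3 with ruxolitinib. These differences were not tested either. On day 3 the venetoclax mice had -1.75, -1.15 and -1.23 against 0.16 and -0.48, with no overlap. The day 1 ruxolitinib mice had 0.37, -0.11 and 0.29 against -1.09 and -0.28, also with no overlap. On day 1 the venetoclax mice had -1.46, -0.79 and 0.19 against -1.17 and -1.13, with overlap. That difference was 0.03 without venetoclax replicate 3 and 0.85 without replicate 1, whose Bcl2 count was not above background in a lane under 30000 counts. The day 7 difference ran from -1.25 without venetoclax replicate 1 to -0.47 without replicate 3. With ruxolitinib the day 1 difference ran from 0.46 without vehicle replicate 1 to 1.28 without vehicle replicate 2, and the day 3 difference fell to -0.37 without ruxolitinib replicate 1. The day 3 ruxolitinib mice had ratios of -2.0, -1.39 and -0.72 against -0.48 and -0.89, with overlap, the first from a lane under 30000 counts in which neither Bcl2 nor Bax was above background. On day 7 this ratio was -0.891, -1.773 and -1.459 in ruxolitinib mice against -1.567 and -3.222 in vehicle mice, with overlap, the last from the same count not above background. The levels of the 2 probes in a ratio cannot be compared as amounts, so the changes between mice are what the ratio shows.

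**Figure D3:**
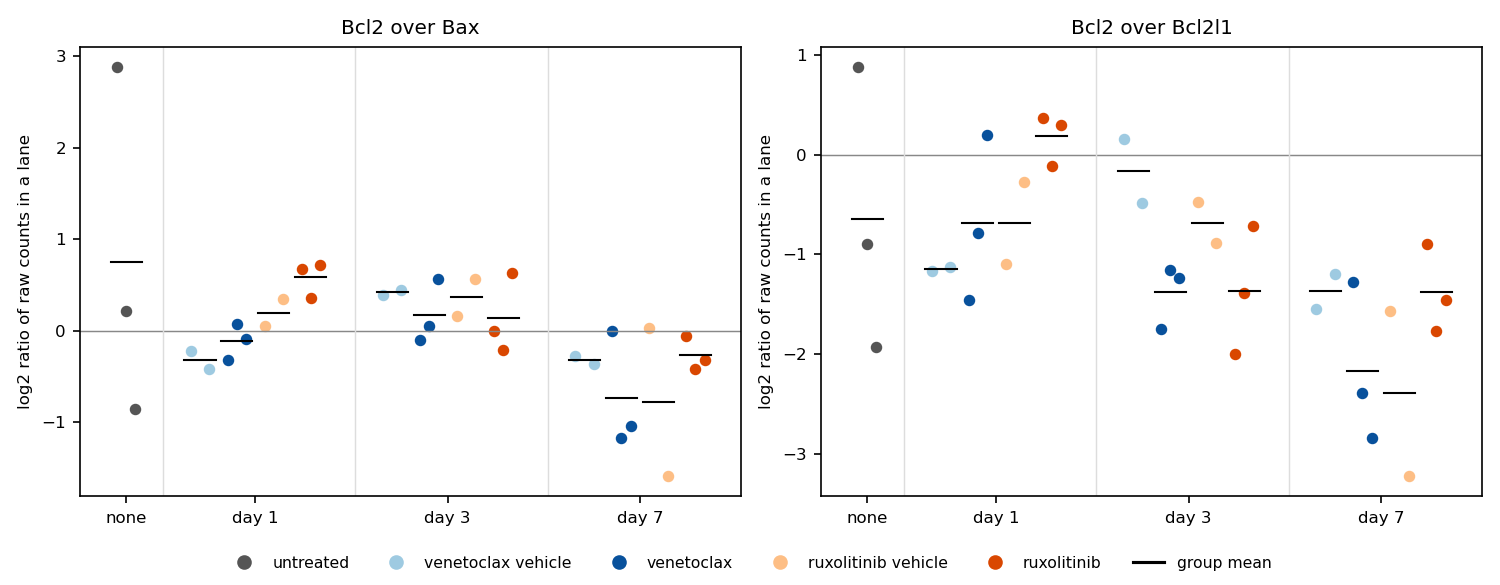
Log2 ratio of raw counts within a lane for Bcl2 over Bax and Bcl2 over Bcl2l1 (y axis) in each mouse (points), by day and group, with group means as bars. The median Bcl2 to Bcl2l1 ratio over the 11 lanes of a run went from -0.28 (day 1) through -0.90 (day 3) to -1.57 (day 7), and that of Bcl2 to Bax from 0.07 through 0.22 to -0.36.

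Among the genes of the extrinsic route, Fas had an unadjusted p under 0.05 with each drug, on different days and in opposite directions, without a call. On day 1 it was 33.3, 36.8 and 50.9 in venetoclax mice against 18.3 and 28.7 in vehicle mice, with no overlap (log2 fold change 0.76, interval 0.01 to 1.51, adjusted p = 0.468 by edgeR). On day 3 it was 42.7, 22.7 and 35.3 against 32.3 and 35.9, and on day 7 it was 17.4, 11.9 (not above background) and 29 against 22.7 and 19.7, so the day 1 difference was not seen on the later days. In ruxolitinib mice Fas was 38.5, 19.0 and 27.3 on day 3 against 52.7 and 29.2 in vehicle mice, with overlap, where the 38.5 was not above background and came from a lane under 30000 counts (log2 fold change -0.75, interval -1.48 to -0.02, adjusted p = 0.966 by edgeR). It became -0.30 without ruxolitinib vehicle replicate 1 and -1.15 without ruxolitinib vehicle replicate 2. The groups also overlapped on day 1 (18.8, 38.5 and 31.7 against 36.6 and 36.6) and on day 7 (27.9, 18.2 and 31.1 against 23.8 and 18.4).

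Fadd, the adaptor between FAS and CASP8, was the lowest in counts and was above background in 20 of 33 lanes. With venetoclax on day 1 it was 5.55, 3.74 and 4.24 against 7.55 and 8.76 in vehicle mice, lower in 3 of 3 (log2 fold change -1.01, interval -2.29 to 0.26), of which the first was not above background. With ruxolitinib on day 1 it was 5.02, 8.48 and 9.85 against 8.24 and 1.71. That difference (log2 fold change 1.02, interval 0.00 to 2.04, adjusted p = 0.366 by edgeR) became -0.07 without the second vehicle mouse, whose count was not above background. On day 3 Fadd was 5.50 (not above background), 7.52 and 9.92 in ruxolitinib mice against 3.67 and 4.05 in vehicle mice, with no overlap. Both of these vehicle mice were below background. The log2 fold change of 1.03 was not called, and it ran from 0.89 (without ruxolitinib replicate 3) to 1.18 (without ruxolitinib replicate 2).

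Casp8, the initiator caspase, had narrow intervals. In venetoclax mice it was 44.4, 69.8 and 82.7 on day 1 against 63.7 and 69.3, with overlap. On day 3 it was 66.2, 64.9 and 66.2 against 42.7 and 63.8, higher in 3 of 3, and on day 7 it was 71.2, 52.2 and 80.3 against 82.8 and 92.7, lower in 3 of 3. Those differences of 0.27 and -0.30 on the log2 scale were not called. The first ran from 0.04 without vehicle replicate 1 to 0.62 without vehicle replicate 2, and the second from -0.47 without venetoclax replicate 3 to -0.18 without venetoclax replicate 2. The mean of days allowed 0.832 to 1.22 times the vehicle level with venetoclax. With ruxolitinib the log2 fold changes were -0.02, 0.02 and 0.06 on days 1, 3 and 7.

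The p53 axis was not called after either drug. Trp53 was 94.3, 130 and 187 in venetoclax mice on day 1 against 86.3 and 98.0, it was 70.5, 93.7 and 54.7 on day 3 against 128 and 104, and it was 64.3, 68.8 and 49.0 on day 7 against 48.4 and 44.9. Treated mice lay below both controls on day 3 (log2 fold change -0.67, unadjusted p = 0.075) and above both on day 7 (0.30), where the sign turned with untreated mice as control (-1.12, adjusted p = 0.0492 by edgeR). That control pooled 1 untreated mouse from each run, so run was ignored in it. Trp53 was 57.3 in the untreated mouse of run 3, which held the day 7 mice, and 262 and 80.7 in those of runs 1 and 2. On day 1 the log2 fold change was 0.61 with overlap, so day 3 had the opposite sign to days 1 and 7. In ruxolitinib mice the Trp53 differences were -0.31, -0.12 and -0.17 on the log2 scale, all with overlap. Cdkn1a, the classic target gene of p53, was 16.6 (not above background), 12.5 and 10.6 on day 1 in venetoclax mice against 5.39 and 9.56, above both controls, though the highest value was not above background. It was 12.2, 12.4 and 18 on day 3 against 16.1 and 5.89, and 10.4, 9.48 (not above background) and 7.49 on day 7 against 5.08 and 14.0. Its fitted difference averaged 0.53 (interval -0.04 to 1.11, unadjusted p = 0.068, adjusted p = 0.584 by edgeR). The daily fits were 0.68, 0.59 and 0.34, but on day 7 the mean level was lower in venetoclax mice (9.13) than in vehicle mice (9.56). Leaving out 1 mouse turned the sign on day 3 (-0.16 without vehicle replicate 2) and on day 7 (-0.74 without vehicle replicate 1), and moved the average to between 0.18 (without vehicle day 7 replicate 1) and 0.76 (without vehicle day 3 replicate 1). With ruxolitinib Cdkn1a averaged -0.09, and its day 1 levels of 10.0, 6.22 and 9.30 lay below the vehicle levels of 12.8 and 11.

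Groups that do not overlap were common in this design. With venetoclax 4 of the 9 genes did not overlap on day 1, 4 on day 3 and 2 on day 7, against 27.5%, 26.1% and 17.3% of all genes tested. With ruxolitinib the counts were 4, 1 and 1, against 44%, 15.6% and 17.7%.

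Whether the drugs differed was tested as the venetoclax response minus the ruxolitinib response. None of the 9 genes was called on any day or in the mean of days, against 1.68% of all genes on day 1, 0.153% on day 3, 0.305% on day 7 and 0.611% in the mean of days, and neither limma nor DESeq2 called any. At an unadjusted p under 0.05, 3 of the 9 passed on day 1, 0 on day 3, 0 on day 7 and 2 in the mean of days (13.4%, 3.05%, 3.82% and 8.7% of all genes). The 3 on day 1 were Fadd (-2.04, unadjusted p = 0.016, adjusted p = 0.207, but -0.94 and adjusted p = 0.725 without ruxolitinib vehicle replicate 2, whose count was not above background), Bid (-1.19, unadjusted p = 0.02, adjusted p = 0.243) and Fas (1.05, unadjusted p = 0.034, adjusted p = 0.305), as log2 differences by edgeR. Averaged over days, the 2 that passed were Fadd (-0.95, adjusted p = 0.536) and Fas (0.58, adjusted p = 0.552). For Bcl2 this difference was -0.45 (interval -1.06 to 0.16), and it was 0.32 for Bcl2l1, -0.25 for Bax, -0.39 for Bid, -0.01 for Casp8, 0.28 for Trp53 and 0.63 for Cdkn1a. Leaving out 1 mouse moved Bcl2 to -0.84 (without ruxolitinib vehicle day 7 replicate 1, which leaves a vehicle count not above background) and Cdkn1a to 0.27 (without venetoclax vehicle day 7 replicate 1). It moved Fadd to -0.58 (without ruxolitinib vehicle day 1 replicate 2), Trp53 to 0.12 and Bid to -0.59 or -0.28 (without ruxolitinib vehicle day 3 replicate 1 for Trp53, and replicate 2 or 1 for Bid), Fas to 0.38 (without venetoclax day 7 replicate 3) and the sign of Casp8.

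Gavage with vehicle was compared with no treatment, as the mean of the 6 vehicle groups against the 3 untreated mice. None of the 9 genes was called, against 0.0% of all genes. In the same comparison 3 of the 9 and 11.5% of all genes had an unadjusted p under 0.05. Over all genes limma called 1 and DESeq2 0. Those 3 were Bid (log2 difference 0.66, adjusted p = 0.398), Fas (-0.63, adjusted p = 0.391) and Trp53 (-0.68, adjusted p = 0.389). The other log2 differences were -0.46 for Bcl2, 0.0030 for Bcl2l1, 0.19 for Bax, -0.04 for Casp8, -0.03 for Fadd and -0.69 for Cdkn1a. Without 1 untreated mouse Bcl2 ran from -0.80 (run 2 mouse left out) to 0.06 (run 1), Bax from -0.02 (run 1) to 0.33 (run 3) and Cdkn1a from -1.18 (run 2) to -0.34 (run 3). The untreated mice themselves were far apart. Trp53 was 262 in the untreated mouse of run 1, 80.7 in that of run 2 and 57.3 in that of run 3, and Bcl2 was 70.4, 26.9 and 16.9, the last not above background. Without the run 1 mouse, in whose lane 38.5% of gene probes were above background, the Trp53 difference became 0.13. Within runs, vehicle minus untreated on the scale of log2(normalised count + 1) was -1.32, 0.25 and -0.26 for Trp53, 1.35, 0.20 and 0.73 for Bid and -0.97, -0.11 and -1.02 for Fas. Fas had 1 sign in the 3 runs and Trp53 did not, while the 1.35 of Bid rests on an untreated count not above background.

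Some of the 9 genes varied among the groups of the whole series. In a test of any difference among the 13 groups, 4 of the 9 were called by edgeR, Bcl2 (adjusted p = 0.00103), Bid (0.0011), Trp53 (0.0024) and Bcl2l1 (0.048), against 36.3% of all genes. In a test of any difference among the 4 treated groups of the same day, none was called, against 7.33% of all genes, limma called none of the 9, and 1 of the 9 had an unadjusted p under 0.05, against 16.9% of all genes. The Bcl2l1 call held in 1 of 7 alternative settings and in 10 of 33 fits that left out 1 mouse. In the same test of the 13 groups Fas, not called by the edgeR fit, was called in 2 of 7 (TMM scaling and the replicate block) and in 4 of 33.

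Bcl2 and Trp53 were lower and Bid was higher on day 7 than on day 1 in mice that had received no drug. Each day was 1 run of separate mice, so day and run cannot be told apart here. The 4 vehicle mice of day 7 had Bcl2 levels of 18.8, 19.7, 16.5 and 6.15, the last not above background, all below the 25.9, 21.5, 27.5 and 35.3 of the 4 vehicle mice of day 1 (15.3 ± 6.2 against 27.5 ± 5.7, SD, n = 4 each). The log2 fold change was -0.74 (interval -1.32 to -0.17, adjusted p = 0.0457 by edgeR), and it ran from -1.34 (without ruxolitinib vehicle day 7 replicate 1) to -0.63 (without ruxolitinib vehicle day 7 replicate 2). The Bcl2 call held in 3 of 7 alternative settings and in 24 of 33 fits that left out 1 mouse, compared or not. Trp53 was 48.4, 44.9, 48.8 and 49.2 on day 7 against 86.3, 98.0, 110 and 128 on day 1, with no overlap (log2 fold change -1.12, adjusted p = 0.00514 by edgeR). Bid was 52.4, 50.6, 54.3 and 47.1 against 41, 29.5, 17.4 and 21.6, with no overlap (log2 fold change 0.97, adjusted p = 0.00342 by edgeR). In the vehicle mice 3 of the 9 genes were called, 2 lower and 1 higher, against 10.1% lower and 20.0% higher of all genes (30.1% in all). That split over all genes moved with the scaling, from 131 higher and 66 lower to 94 and 112 with TMM scaling and to 170 and 25 with total count scaling. The 3 of 9 called is near the share of all genes, so nothing particular to the 9 genes is read from it. The groups of 4 genes did not overlap (33.7% of all genes), the other being Bax at 22.7, 25.3, 16.2 and 18.4 against 30.2, 28.7, 26.6 and 27.7 (adjusted p = 0.0533 by edgeR, not called). Bax was called in 3 of 7 alternative settings, TMM scaling, the replicate block and DESeq2. The log2 fold changes of the other genes were 0.02 for Bcl2l1, 0.28 for Casp8, 0.49 for Fadd, -0.42 for Fas and -0.28 for Cdkn1a, none called. Casp8 was called in 1 of 7 alternative settings (0.52 with total count scaling).

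The drug-treated mice gave the same directions for these genes. In venetoclax mice Bid (log2 fold change 1.2, adjusted p = 0.00596) and Trp53 (-1.27, adjusted p = 0.00798) were called, 2 of 9 against 27% of all genes, while Bcl2 (-0.96, adjusted p = 0.0695) was not, all by edgeR. Bcl2 was called in 3 of 7 alternative settings (TMM scaling, the replicate block and DESeq2) and in 3 of 33 fits that left out 1 mouse (-1.28 without day 7 replicate 1 to -0.61 without day 7 replicate 3). Fas (-0.82, adjusted p = 0.069 by edgeR, not called) was called in 4 of 7, those and limma, at -0.94 to -1.15, and in 1 of 33 such fits (-1.43 without day 7 replicate 3 to -0.65 without day 1 replicate 3). Bcl2l1 (0.69, adjusted p = 0.0553 by edgeR, not called) was called in 1 of 7 (0.82 without the lanes under 30000 counts) and in 5 of 33. In ruxolitinib mice Bcl2 (-1.45, adjusted p = 0.000936), Trp53 (-1.15, adjusted p = 0.0176) and Bax (-0.61, adjusted p = 0.0496) were called, 3 of 9 against 18.9% of all genes, while Bid (0.61, adjusted p = 0.114) was not. The Bax call was lost in 7 of 7 alternative settings (adjusted p from 0.0516 to 0.265). The levels of days 1 and 7 did not overlap for 4 genes in venetoclax mice (36.0% of all genes) and for 3 in ruxolitinib mice (37.7%). A difference between the drugs in this change was not tested. The untreated mice of runs 1 and 3 lay in the same order, with Bcl2 at 70.4 and 16.9, Trp53 at 262 and 57.3 and Bid at 9.60 and 30.3, where the Bcl2 count of run 3 and the Bid count of run 1 were not above background. These are 1 mouse each, and in the lane of the run 1 mouse only 38.5% of gene probes were above background.

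How far these calls held differed between the arms. The 33 fits left out each mouse in turn, while a drug arm had 3 mice on each day and the vehicle arm 4. Most of these fits kept every compared mouse and changed only the shared spread. The counts out of 33 thus say little beyond the fits that left out a compared mouse. In the vehicle mice, Trp53 and Bid were called in 7 of 7 alternative settings and in 33 of 33 fits that left out 1 mouse, and Bcl2 in 3 of 7 and 24 of 33. In ruxolitinib mice Bcl2 was called in 7 of 7 and 33 of 33, Trp53 in 6 of 7 and 31 of 33, and Bid in 0 of 7 and 1 of 33. In venetoclax mice the Bid call was lost without day 1 replicate 3 (log2 fold change 0.99, adjusted p = 0.0551) and the Trp53 call without day 1 replicate 3 (-1.01) or day 7 replicate 3 (-1.09). The Trp53 call of ruxolitinib mice was lost without day 1 replicate 1 (-1.0) or day 7 replicate 1 (-0.98), and the Bax call held in 0 of 7 settings and 8 of 33 such fits. The number of called genes among the 9 thus ran from 0 (without venetoclax day 1 replicate 3) to 4 (without untreated replicate 1 or 3) for venetoclax, and from 1 (without ruxolitinib day 1 replicate 1 or day 7 replicate 1) to 3 for ruxolitinib.

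Some markers of marrow cell types also differed between the runs, and their counts are read against the 20.0% of all genes called higher and 10.1% called lower in vehicle mice, a split that the scaling moved as given above. The summed normalised counts of 5 progenitor markers were 70.0 to 167 in run 1 and 237 to 528 in run 3, with 4 of 5 called higher on day 7 in vehicle mice. Monocyte and macrophage markers summed to 5546 to 9396 in run 1 and 9027 to 12792 in run 3, with 4 of 10 called higher. Of 11 neutrophil markers, 5 were called higher and 3 lower, and the share of gene counts taken by S100a8 was 46.5% to 68.8% in run 1, 47.3% to 65.1% in run 2 and 32.5% to 40.6% in run 3. Of 10 B cell markers, 3 were called higher and 3 lower. T cell markers had median sums of 145 in run 1 and 147 in run 3, and NK cell markers 193 and 192. These medians were 230 and 242 for pre-B cell, 499 and 600 for proliferation and 200 and 174 for megakaryocyte markers. All sums cover the 11 lanes of a run, drug-treated mice included, whereas the calls are in vehicle mice. No list had a marker at the lowest count in every lane. Their part in the change of Bcl2, Bid and Trp53 was not tested.

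**Figure D4:**
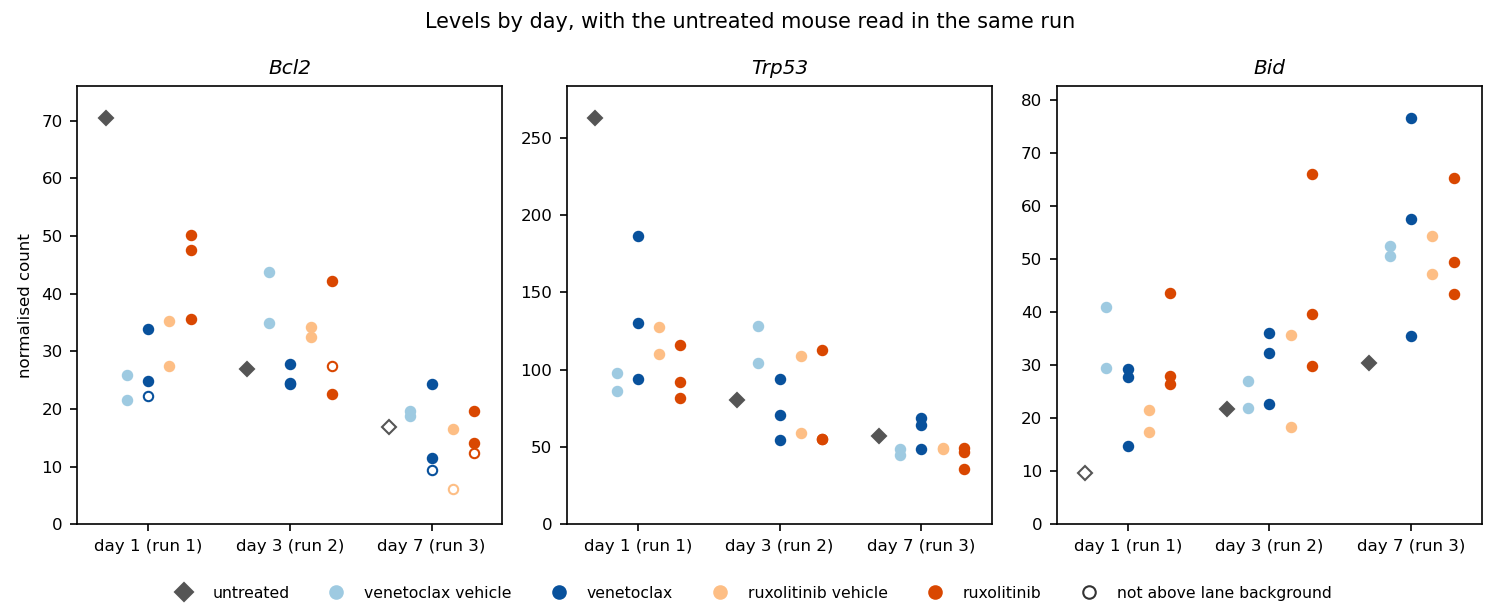
Normalised counts (y axis, linear from 0) of Bcl2, Bid and Trp53 in each mouse (points) by day and run (x axis), coloured by group, with the untreated mouse of the run as a diamond and open symbols for counts not above background. The 4 vehicle mice of day 7 lie below those of day 1 for Bcl2 and Trp53 and above them for Bid.

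The promoters of these 3 genes are shown since they were the ones called in vehicle mice. RefSeq windows of GRCm38.p6, from 250 bases before to 50 after a start site, were found for 9 of 9 genes (12 windows). They were searched on both strands for GGGCGG (the GC box), TATAAA (the TATA box), CCAAT (the CAAT box), CACGTG (an E-box), TTCNNNGAA (a STAT site), the kappa enhancer NF-kB site and the p53 decamer. Each window below is read 5′ to 3′ on the gene's strand, Bcl2 at chr1:106714241-106714540 (minus), Trp53 at chr11:69580109-69580408 (plus) and Bid at chr6:120916775-120917074 (minus). Capitals mark GGGCGG on either strand in Bcl2 and Bid, and the NF-kB site and CACGTG in Trp53.
Bcl2: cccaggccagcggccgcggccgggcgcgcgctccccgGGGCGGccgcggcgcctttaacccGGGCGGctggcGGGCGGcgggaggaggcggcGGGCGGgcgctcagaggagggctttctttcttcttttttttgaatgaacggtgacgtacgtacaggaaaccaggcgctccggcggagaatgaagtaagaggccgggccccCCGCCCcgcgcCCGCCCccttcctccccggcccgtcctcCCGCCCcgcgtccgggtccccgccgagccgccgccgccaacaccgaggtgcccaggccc
Trp53: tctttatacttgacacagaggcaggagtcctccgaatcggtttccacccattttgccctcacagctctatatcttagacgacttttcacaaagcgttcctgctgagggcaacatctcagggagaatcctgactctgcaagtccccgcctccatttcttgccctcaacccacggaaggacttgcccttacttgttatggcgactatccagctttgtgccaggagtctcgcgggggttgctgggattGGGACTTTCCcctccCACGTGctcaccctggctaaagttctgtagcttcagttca
Bid: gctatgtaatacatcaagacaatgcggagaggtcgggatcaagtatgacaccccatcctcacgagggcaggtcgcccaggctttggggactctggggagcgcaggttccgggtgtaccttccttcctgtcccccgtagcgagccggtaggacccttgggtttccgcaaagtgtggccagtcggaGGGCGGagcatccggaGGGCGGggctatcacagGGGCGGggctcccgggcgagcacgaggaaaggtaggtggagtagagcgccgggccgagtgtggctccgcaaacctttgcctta

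The Bcl2 window held 7 GGGCGG matches and was 76.0% G and C, and the Bid window held 3. At least 1 such match was in 6 of the 12 windows and in 35.7% of all 32851 windows. The Trp53 window had no GGGCGG match, and it was the only 1 of the 12 with the NF-kB site, which 0.155% of all windows held, and its first base lay 5 bases before the start site, so that it spanned the start. CACGTG was in 3 of the 12 windows (7.15% of all), and it was in that of Trp53. CCAAT was in 2 (37.4% of all), TATAAA in 1 (13.6%), TTCNNNGAA in 1, that of Fas (8.30%), and the p53 decamer in 3, those of Bax, Trp53 and Cdkn1a (8.36%). The median G and C content was 56.5% in the 12 windows and 52.7% in all. These matches are letters in a window and were not tied to the counts.

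Ordered by group mean, each group's mice overlapped those of the next in most of the 9 genes. Bcl2 ran from 44.5 in ruxolitinib mice on day 1 to 11.3 in ruxolitinib vehicle mice on day 7, Trp53 from 137 in venetoclax mice on day 1 to 44 in ruxolitinib mice on day 7, and Bid from 56.5 in venetoclax mice on day 7 to 19.5 in ruxolitinib vehicle mice on day 1. Bcl2l1 ran from 79.5 (ruxolitinib, day 3) to 38.7 (ruxolitinib, day 1) and Fas from 47.0 (untreated) to 19.4 (venetoclax, day 7). Fadd ran from 9.24 to 3.86 and Cdkn1a from 16.7 to 7.48. The narrowest ranges were those of Bax, from 29.5 to 17.3, and Casp8, from 87.8 to 53.3. Neighbours overlapped in 12 of 12 steps for 6 genes and in 11 of 12 for Bcl2, Fas and Trp53, and the step without overlap in Bcl2 was from venetoclax vehicle on day 1 to venetoclax vehicle on day 7. Ordering by mean puts groups of similar level side by side, and these steps were not counted for all genes tested. Nothing particular to the 9 genes is therefore read from them.

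The other apoptosis genes of the panel were counted in lists. No other BCL-2 family gene of the list was among the 750 probes, so genes such as Mcl1 and Bcl2l11 were not analysed here. Of 7 death ligand and receptor genes tested, none was called in a drug comparison by edgeR. The lymphotoxin beta receptor gene Ltbr was 47.5 ± 7.5 in venetoclax mice (SD, n = 9) and 39.3 ± 6.0 in vehicle mice (n = 6), a log2 fold change of 0.28 (adjusted p = 0.675 by edgeR), and the TNF receptor gene Tnfrsf1a differed by 0.06. Of 7 adaptor, caspase and IAP genes tested, none was called. Casp1, the caspase of inflammasomes, differed by -0.05 with venetoclax and 0.17 with ruxolitinib, and Traf2, an adaptor of TNF receptors, by -0.13 and -0.19. Of 3 p53 and DNA damage genes, none was called, and the damage kinase gene Atm had the lowest p, at 25.2 ± 6.9 in venetoclax mice (n = 9) against 37.4 ± 7.7 in vehicle mice (n = 6), a log2 fold change of -0.49 (adjusted p = 0.152 by edgeR). Abl1 differed by 0.18 with venetoclax and -0.25 with ruxolitinib. None of 5 cytotoxic granule genes was called. Over the 8 drug comparisons these lists had an unadjusted p under 0.05 in 1 of 56, 2 of 56, 2 of 24 and 3 of 40 tests, in the order given, against 8.21% of the tests of all genes, and limma and DESeq2 called none.

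Of 12 NF-kB survival genes, 1 was called in a drug comparison, Rela, which encodes the p65 subunit. Rela was lower in the mean of days with venetoclax, at 42.6 ± 11.5 (SD, n = 9) against 63.1 ± 5.9 (n = 6), a log2 fold change of -0.48 (SE 0.14, adjusted p = 0.042 by edgeR). It was -0.02 with ruxolitinib, and the difference between the drugs had an adjusted p of 0.36 by edgeR. The call held in 3 of 9 alternative settings (adjusted p from 0.0166 to 0.37) and in 17 of 33 fits that left out 1 mouse (0.0291 to 0.127). Over the 8 drug comparisons 5 of 96 tests of these 12 genes had an unadjusted p under 0.05, against 8.21% of the tests of all genes. In the same comparison 3 of 13 T cell markers and 1 of 10 B cell markers were called lower, against 2.9% of all genes (1 and 0 with limma, 2 and 0 with DESeq2), and their part in the Rela difference was not tested. With ruxolitinib 3 of 3 pre-B cell markers and 1 of 10 B cell markers were called lower in the mean of days, against 1.22% of all genes. DESeq2 called the same numbers, and limma called none of these markers and no gene in that comparison.

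Likeness between genes was described by Pearson's r over the 33 mice after the mean of each run was taken out, on log2(normalised count + 1), among 353 or 354 other genes with a mean of at least 20. Genes of a mouse share its lane and scale factor, so these are descriptions with no p. Bcl2 was most like Atm (r = 0.593), the B cell gene Cd22 (0.585) and Cd83 (0.531). Trp53 was most like Anp32b (0.84), Tap2 (0.68) and Atf2 (0.651), and Bid most like Lamp1 (0.743), Cxcr4 (0.731) and Fcgr2b (0.714). Bcl2l1 was most like Jak2 (0.634), Fas most like Plaur (0.718) and Bax most like Psen2 (0.675). Casp8 was most like Mrc1 (0.592). The lowest values were those of Fadd (Axl, 0.435) and Cdkn1a (Hcst, 0.486), the genes with the fewest counts. Among the 9 themselves, Bid and Trp53 ran opposite to each other within runs (r = -0.717), and Bcl2 and Trp53 ran together less closely (r = 0.402). The mouse with the highest Trp53 level (262, untreated, run 1) had a Bid count not above background, and neither r was computed without it.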

How the data were processed

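The deposited files hold the raw probe counts of 33 nCounter lanes, 1 per mouse, with 750 gene, 20 housekeeping, 8 negative and 6 positive control probes, and the authors had applied no normalization to these counts. The panel is a mouse immune panel, which the sources name in different ways, and the deposited counts are whole numbers of barcodes with a lowest value of 1. Groups came from the sample labels. The header of run 2 names another day than the label, and the label's day 3 was used.

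Lanes were brought to a common scale on the geometric mean of 11 housekeeping probes, those above background (negative probe mean plus 2 SD) throughout. A gene entered the test if at least 2 lanes held it above background, which left 655, fitted in R 4.3.3 with edgeR 4.0.16 (quasi-likelihood test) in 1 model of 13 group means over all 33 mice, with Benjamini-Hochberg adjustment over all 655 and a threshold of 0.05. Intervals are the fitted log2 value ± t × SE. The mice are separate animals, so p-values set a difference against the spread between mice, pooled over the 13 groups, and 2 or 3 mice a group limit the precision. For day 7 against day 1 each day was 1 run, so no p-value there measures how far a day would differ in another run. The untreated mice, 1 from each run, were fitted as 1 group, so differences between runs enter the residual spread of each test. For vehicle mice on day 7 against day 1, leaving out untreated replicate 1 gave the lowest p of such fits for Bax, Bcl2 and Trp53. Counting error alone is largest for probes near background. The script was tested on simulated data. The alternatives were TMM and total count scaling, no filter on low counts, limma 3.58.1, DESeq2 1.42.0, a replicate block, both vehicles pooled, untreated mice as control, a fit of the 2 groups alone, leaving out the lanes under 30000 counts and leaving out each mouse. For vehicles against untreated mice the run was also fitted as a block. Each of all 33 mice was left out in turn, so where few groups were compared most such fits kept every compared mouse. Those fits changed only the shared spread. The comparisons of day 7 with day 1 and of groups within a day were added after the data were seen. The replicate numbers did not pair the mice (4 of 12 pairs of deviations correlated above 0.1, from -0.35 to 0.30).

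The 9 genes and the gene lists were chosen with earlier results of these data known. The rule named the 9 genes in every result, and the text gives in full those a comparison turned on. From a list, genes called in a drug comparison were named, or otherwise up to 2 with the largest change in the mean of days and a mean count of at least 20. Promoter windows came from RefSeq tables (GRCm38.p6) and were matched by symbol. The cell type lists and gene lists are background knowledge, and no list was tested as a set.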

Additional observations from a re-analysis of the deposited data

How the results depend on the processing

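No gene of the 9 was called in a drug comparison by any alternative except untreated mice as control, which called 3 (Bcl2, Bid and Trp53) on day 7 for each drug. Here and below, daily values with that control set mice of 1 run against untreated mice of all 3 runs, so run was ignored in them. Values for the mean of days with that control set drug mice of all 3 runs against the same untreated mice. The untreated mouse of run 3, the run of day 7, had Bcl2 at 16.9 (not above background), Trp53 at 57.3 and Bid at 30.3. The count of genes called on day 1 with venetoclax was 1 in the edgeR fit and 0 with TMM scaling, 2 with total count scaling, 2 with the replicate block, 25 with both vehicles pooled, 25 with untreated mice as control, 19 in a fit of the 2 groups alone, 0 with limma, 4 with DESeq2 and 3 without the lanes under 30000 counts. On day 3 it was 0, and 2 with TMM scaling and 1 with DESeq2. On day 7 it was 1, and 0 with total count scaling, 66 with untreated mice as control and 0 with limma. For the mean of days it was 19, and 11 with the replicate block, 10 with limma and 12 with DESeq2. With ruxolitinib it was 18 on day 1, and 30 with both vehicles pooled, 77 in a fit of the 2 groups alone and 5 with limma. On day 3 it was 1, and 10 with both vehicles pooled, 0 in a fit of the 2 groups alone, 2 with DESeq2 and 2 without the lanes under 30000 counts. On day 7 it was 1, and 87 with untreated mice as control and 0 with limma. For the mean of days it was 8, and 4 with the replicate block, 20 with both vehicles pooled and 0 with limma. For the difference between the drugs it was 11 on day 1 (1 with limma, 7 with DESeq2), 2 on day 7 (1 with total count scaling, 0 with limma, 1 without the lanes under 30000 counts) and 4 in the mean of days (10 with the replicate block). Vehicles against untreated mice gave 0, and 1 without the filter and 1 with limma. None of the 9 genes was called there in any of 8 alternatives, the run as a block among them.

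For day 7 against day 1 the count was 197 in vehicle mice (121 with limma) and 124 in ruxolitinib mice (50 with limma). Among the 9 genes, venetoclax mice had 2 called (4 with TMM scaling, 4 with the replicate block, 4 with DESeq2) and ruxolitinib mice 3 (1 with limma). Any difference among groups gave 238 genes (147 with limma), and within days 48 (21 with limma), where no DESeq2 fit was run. The cause of these changes was not tested.

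Of the log2 fold changes reported here, those not called in the edgeR fit turned sign as follows. With venetoclax on day 1 Bcl2 was -0.016 with both vehicles pooled, and untreated mice as control gave Bcl2 -0.36, Bid 0.26, Fas -0.15 and Cdkn1a -0.18. The same control gave Casp8 -0.058 on day 3 and, on day 7, Casp8 0.037, Cdkn1a -0.75 and, called, Trp53 -1.12. In the mean of days untreated mice as control gave Bax 0.18, Bid 0.76, Casp8 -0.0021, Fas -0.51, Trp53 -0.59 and Cdkn1a -0.30, Bid was 0.10 with both vehicles pooled and 0.012 with DESeq2, and Casp8 was -0.0815 with total count scaling, -0.052 with the replicate block and -0.041 with limma. With ruxolitinib Casp8 was 0.11 on day 1 with total count scaling. On day 3 Bax was -0.0030 with total count scaling and -0.030 with both vehicles pooled, and Casp8 was -0.057 with total count scaling, -0.045 with the replicate block, -0.18 with untreated mice as control and -0.019 with limma. On day 7 both vehicles pooled gave Bcl2 -0.0086, Bax -0.045 and Casp8 -0.0745, untreated mice as control gave Bax -0.18 and, called, Bcl2 -1.09 and Bid 1.25, Bid was 0.036 with limma and Casp8 -0.085 with total count scaling. In the mean of days Bcl2 was -0.32 and Casp8 -0.060 with untreated mice as control, both vehicles pooled gave Bax -0.0077, Casp8 -0.016 and Cdkn1a 0.051, and Casp8 was -0.012 with total count scaling and -0.032 with the replicate block. For the difference between the drugs in the mean of days, Casp8 was 0.015 with TMM scaling, 0.040 with DESeq2 and 0.023 without the lanes under 30000 counts. For vehicles against untreated mice, TMM scaling, total count scaling, the replicate block and DESeq2 gave Casp8 0.090, 0.025, 0.0080 and 0.16 and Fadd 0.070, 0.061, 0.12 and 0.14, and the replicate block gave Bcl2l1 -0.011. From day 1 to day 7, Bcl2l1 in vehicle mice was -0.19 with TMM scaling and -0.18 with DESeq2, Cdkn1a 0.062 with limma, Casp8 in venetoclax mice -0.26 with TMM scaling, -0.25 with DESeq2 and -0.094 without the lanes under 30000 counts, and Cdkn1a in ruxolitinib mice 0.12 with total count scaling and 0.0035 with the replicate block. The median log2 value of all genes for day 7 against day 1 moved by -0.20 in vehicle mice and -0.28 in venetoclax mice with TMM scaling, by -0.16 and -0.30 with DESeq2, and the other way with total count scaling, by 0.24, 0.16 and, in ruxolitinib mice, 0.16. For vehicles against untreated mice it moved by 0.12 with TMM scaling and 0.17 with DESeq2. Total count scaling also moved it on day 1 by -0.12 with venetoclax, 0.12 with ruxolitinib and -0.26 for their difference (0.12 with DESeq2), and by -0.13 with ruxolitinib on day 7.

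Leaving out 1 mouse at a time gave the following ranges for genes called. Venetoclax had 0 to 12 on day 1, 0 to 2 on day 3, 0 to 1 on day 7 and 8 to 21 in the mean of days. Ruxolitinib had 7 to 22, 1 to 5, 0 to 1 and 2 to 11. The difference between the drugs had 1 to 19, 1 to 2, 0 to 2 and 3 to 9, vehicles against untreated mice 0 to 6, and day 7 against day 1 103 to 212 (vehicle), 114 to 195 (venetoclax) and 60 to 156 (ruxolitinib). Of the 9 genes, 0 to 4 were called for venetoclax day 7 against day 1 and 1 to 3 for ruxolitinib. Over the 9 genes, 46 of 144 log2 ranges crossed 0, among them, in the mean of days with venetoclax, -0.15 to 0.069 (Bid), -0.068 to 0.13 (Casp8) and -0.0038 to 0.14 (Trp53), and with ruxolitinib -0.021 to 0.053 (Casp8) and -0.37 to 0.036 (Cdkn1a). Venetoclax gave Cdkn1a -0.16 to 1.28 on day 3 and, on day 7, Bid -0.042 to 0.32 and Cdkn1a -0.74 to 0.71. Ruxolitinib gave Fadd -0.069 to 2.14 and Casp8 -0.14 to 0.054 on day 1, Bcl2 -0.51 to 0.20, Bax -0.20 to 0.28, Casp8 -0.063 to 0.046 and Trp53 -0.59 to 0.36 on day 3, and Bcl2 -0.029 to 1.39, Bid -0.16 to 0.078 and Casp8 -0.055 to 0.17 on day 7. The difference between the drugs in the mean of days gave Casp8 -0.085 to 0.11. Vehicles against untreated mice gave Bcl2 -0.80 to 0.060, Bcl2l1 -0.11 to 0.13, Bax -0.018 to 0.33, Casp8 -0.25 to 0.086, Fadd -0.41 to 0.17 and Trp53 -1.02 to 0.13. From day 1 to day 7, vehicle mice gave Bcl2l1 -0.10 to 0.13, Fadd -0.057 to 1.05 and Cdkn1a -0.46 to 0.26, venetoclax mice Casp8 -0.15 to 0.16, and ruxolitinib mice Bcl2l1 -0.11 to 0.19 and Cdkn1a -0.24 to 0.073. Fadd, Cdkn1a and Bcl2 were not above background in 13, 5 and 6 of 33 lanes, Fadd also in a lane of 442402 counts, and the part of depth in this was not tested.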
